A study of Mus musculus with 77 samples.

Results

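The 9 genes described here make, store or regulate serotonin. They are the tryptophan hydroxylases Tph1 and Tph2, the decarboxylase Ddc, the cofactor enzyme Gch1, the vesicular transporters Slc18a1 and Slc18a2, and the transcription factors Fev, Lmx1a and Lmx1b. They were chosen by symbol, and their counts were read from 9 of the 46078 gene rows of the table. Each library was a pool of 50 sorted cells from C57BL/6 mouse pancreatic ductal organoids, which are three-dimensional cultures grown from adult ducts. The study asked whether Neurogenin3 (Ngn3), a basic helix-loop-helix factor that starts endocrine differentiation, acts more strongly when it cannot be phosphorylated.

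All organoids had been infected with lentiviral vectors carrying GFP under doxycycline-inducible control. The 2-day groups were GFP only, GFP with wild-type (WT) Ngn3, and GFP with 6S-A Ngn3, a phosphomutant in which the serine-proline sites were changed to alanine-proline. The 8-day groups were cells from organoids given WT Ngn3 or 6S-A Ngn3, each with a no-color group from the same kind of organoid. There were no GFP-only cells at 8 days, so the day and the kind of control cannot be told apart. The sorting text of the labels mentions only GFP-positive cells, whereas the sample headers call these controls no-color. Every group had 3 biological replicates, at passage 2 except replicate 3 of the 8-day groups, which was at passage 5. Induction was by transgene, so these cells report what forced Ngn3 does in duct-derived culture and not a normal endocrine precursor.

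Serotonin is made from tryptophan by tryptophan hydroxylase, the rate-limiting step, followed by Ddc, also called aromatic L-amino acid decarboxylase. Tph1 serves peripheral tissues such as gut enterochromaffin cells, and Tph2 serves neurons. The hydroxylases need tetrahydrobiopterin (BH4), for which Gch1 catalyses the first step, and the amine is loaded into vesicles by Slc18a1 (VMAT1) or Slc18a2 (VMAT2). Ddc, Gch1 and both transporters also serve the other monoamines. In the brain Fev and Lmx1b specify serotonergic neurons, Lmx1a regulates Tph1 in enterochromaffin cells, and in the pancreas Fev marks an endocrine precursor stage that follows Ngn3.

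Ngn3 binds DNA at E-boxes, so the 250 bases before the RefSeq start of each gene were searched on both strands for CANNTG, whose matches read the same class of site on either strand. The 3 sequences that follow belong to the genes that rose at 2 days, 5′ to 3′, with any match in capitals.
Fev (GRCm38.p6, chr1:74885409-74885658, minus strand): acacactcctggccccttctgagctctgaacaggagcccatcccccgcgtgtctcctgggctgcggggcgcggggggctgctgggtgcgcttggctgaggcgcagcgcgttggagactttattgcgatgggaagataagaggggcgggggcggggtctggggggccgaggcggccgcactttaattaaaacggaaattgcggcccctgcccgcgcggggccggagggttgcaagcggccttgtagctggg
Ddc (GRCm38.p6, chr11:11898145-11898394, minus strand): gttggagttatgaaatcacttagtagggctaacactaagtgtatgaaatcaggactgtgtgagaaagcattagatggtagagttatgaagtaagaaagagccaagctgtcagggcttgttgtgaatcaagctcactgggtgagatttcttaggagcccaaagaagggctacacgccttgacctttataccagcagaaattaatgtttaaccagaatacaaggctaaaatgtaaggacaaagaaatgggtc
Lmx1b (GRCm38.p6, chr2:33641099-33641348, minus strand): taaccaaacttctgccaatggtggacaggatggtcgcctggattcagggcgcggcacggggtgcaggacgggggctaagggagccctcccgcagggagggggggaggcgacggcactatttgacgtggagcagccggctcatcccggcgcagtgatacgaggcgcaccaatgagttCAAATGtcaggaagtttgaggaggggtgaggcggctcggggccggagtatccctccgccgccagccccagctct
The Fev and Ddc windows held no CANNTG, and the Lmx1b window held 1, CAAATG, which lay 74 bases before the start. Slc18a2 and Lmx1a each held 1 match, CAGCTG at 87 bases and CAAGTG at 11 bases before the start, and Tph1, Tph2 and Gch1 held none. For Lmx1b and Slc18a2 the bases after the RefSeq start were in no transcript of the annotation used here, and the Lmx1b window lies beyond the annotated gene end, so both distances hold for the RefSeq start only. A second RefSeq start of Ddc and one of Tph1 held none either, and Slc18a1 had no entry in the RefSeq table. Of 32851 mouse promoters of the same length, 66.2% held CANNTG, and 14.4% held CAGATG or CATCTG, which occurred in no member. The absence of these letters from this window says nothing about binding elsewhere.

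The table held 77 libraries, of which 76 passed limits taken from the study's methods on spike-in share, reads and detected genes. After technical repeats were summed, a replicate held 17757303 to 26627347 gene reads at 2 days and 2397470 to 17919627 at 8 days. Single pools held 1501002 to 5632412 reads at 2 days and 2397470 to 9202142 at 8 days. WT Ngn3 at 8 days had 4 retained pools, and its replicates 2 and 3 were 1 pool each. Levels are counts per 1000000 gene reads (CPM) after TMM scaling, given for replicates 1, 2 and 3. The test throughout was edgeR's quasi-likelihood test, its p-values adjusted by the Benjamini-Hochberg method over all genes tested, and a gene was called at an adjusted p under 0.05. The labels do not say whether replicates came from separate animals, so the p-values measure only the spread between these samples. In pools of cells, fewer cells of a type and less RNA per cell cannot be told apart.

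Neurog3 itself, which cannot be separated here into endogenous and transgene reads, followed the labels. Its mean was 0.0526 CPM in GFP-only cells, 133.3 with WT and 138.5 with 6S-A Ngn3 at 2 days, and 22.4 and 12.7 at 8 days against 0.204 and 0.452 in the no-color groups of WT and 6S-A organoids. The 8-day replicates were at 6.86, 46.1 and 14.2 CPM with WT Ngn3, where replicate 2, a single pool, was the highest, and at 9.86, 12.8 and 15.4 CPM with 6S-A Ngn3. The 8 duct markers were read in every group, and 5 of 8 were lower than in GFP-only cells at 2 days with either protein. Their summed level was 12431 to 14520 CPM in GFP-only replicates, 7663 to 8132 with WT Ngn3 and 6507 to 7045 with 6S-A Ngn3.

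At 2 days Fev, Ddc and Lmx1b rose from near 0 with both forms of Ngn3, whereas the hydroxylases were rarely read and not called, and the cofactor enzyme and transporters were already present in GFP-only cells. Against GFP only, 3 of the 8 members tested were called with WT Ngn3, all higher, and the same 3 with 6S-A Ngn3. Over all 23844 genes tested, 11.8% were called with WT and 18.1% with 6S-A Ngn3. The median log2 fold change of the 8 members was 1.56 and 1.58, beside 0.01 and 0.02 over all genes, and both comparisons used the same GFP-only samples.

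**Figure D1:**
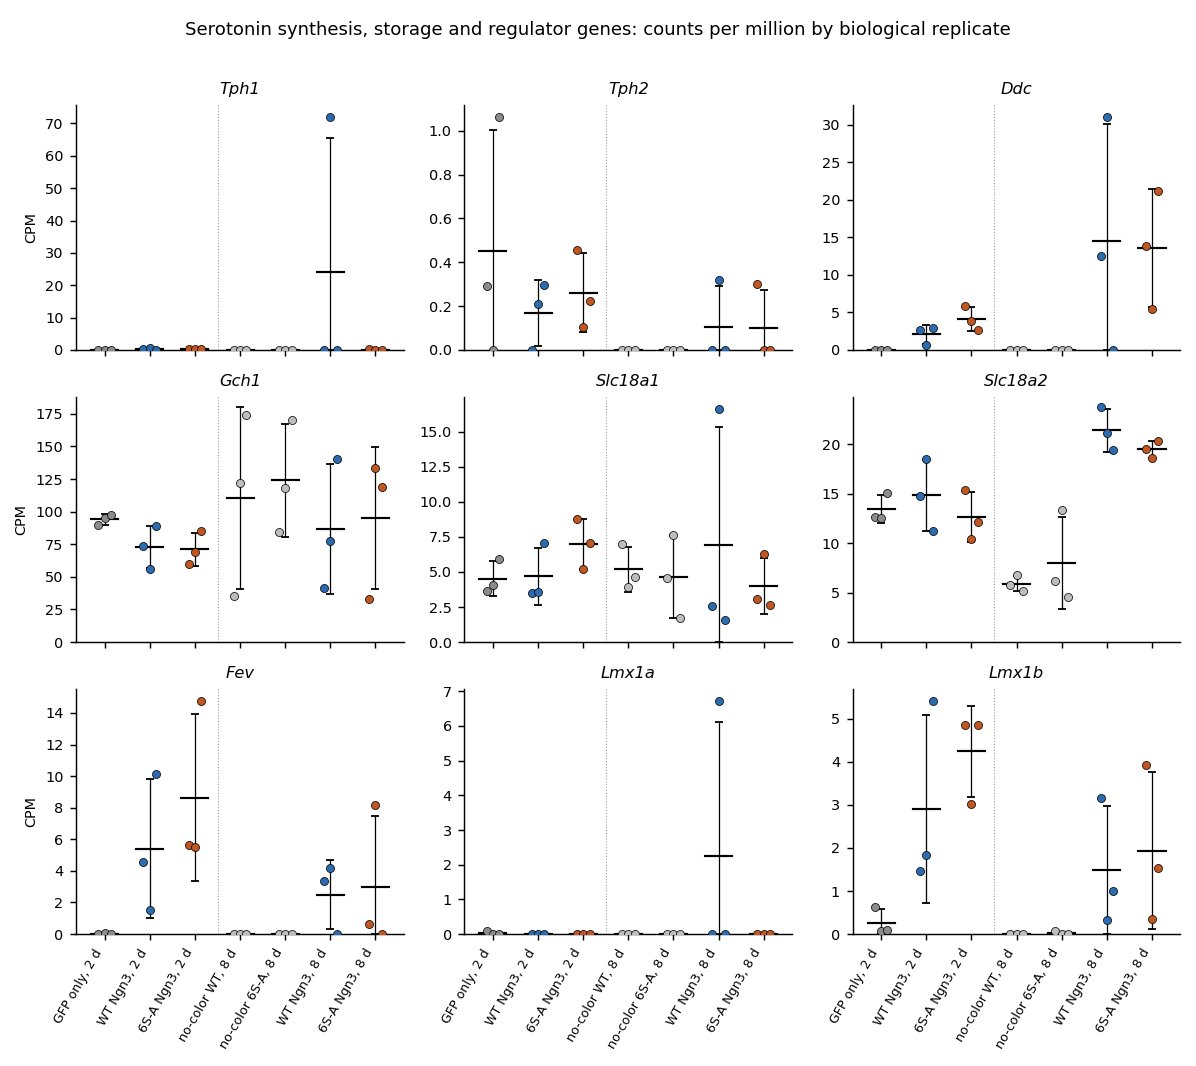
CPM (y axes, TMM scaled, each starting at 0) of the 9 genes in the 7 groups (x axes), with 1 point per biological replicate, the mean as a horizontal bar and the SD as an error bar that is clipped at 0. Fev, Ddc and Lmx1b are at or near 0 in both kinds of control, and the high Tph1 and Lmx1a points at 8 days are 1 replicate of WT Ngn3.

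Fev, an ETS-family factor (ENSMUSG00000055197, GRCm38 chromosome 1, 74881509 to 74885419, minus strand, 8 distinct exons), was read at 0, 0.0770 and 0 CPM in the GFP-only replicates, which is 2 reads in all. It was read at 4.56, 1.52 and 10.1 CPM with WT Ngn3 and at 5.63, 5.52 and 14.8 CPM with 6S-A Ngn3. Every Ngn3 replicate lay above every GFP-only replicate, and replicate 3 was the highest with both proteins. The ratio of pooled reads was 203 (95% interval 55.8 to 1682, counting error only) for WT Ngn3 and 331 (91.1 to 2737) for 6S-A Ngn3, and the fitted log2 fold changes were 7.41 ± 1.05 (SE; adjusted p = 0.00064) and 8.07 ± 1.04 (adjusted p = 0.0002). With so few control reads these fitted values depend on the prior count.

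Ddc, the enzyme of the final step (ENSMUSG00000020182, chromosome 11, 11814101 to 11898144, minus strand), had 0 reads in all GFP-only replicates. With WT Ngn3 it was at 2.66, 0.628 and 2.96 CPM, and with 6S-A Ngn3 at 5.81, 3.80 and 2.72 CPM. All 6 Ngn3 replicates were above 0, from 12 to 127 reads, although WT replicate 2 stood lower than the others. Taking 3 reads per control replicate as the floor, the group mean of Ddc was at least 17.1-fold higher with WT Ngn3 and at least 33.9-fold higher with 6S-A Ngn3 (adjusted p = 0.000286 and 5.94e-05). The gene span overlaps 1700042O10Rik without a shared exon.

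Lmx1b, a LIM-homeodomain factor (ENSMUSG00000038765, chromosome 2, 33560965 to 33640511, minus strand), differed from the other pair in having a low level in GFP-only cells, at 0.622, 0.0770 and 0.0925 CPM. With WT Ngn3 it was at 1.47, 1.83 and 5.42 CPM, and with 6S-A Ngn3 at 4.85, 3.02 and 4.86 CPM. The groups did not overlap, and the highest control replicate owed its level to 17 reads. The log2 fold changes were 3.40 ± 0.72 (adjusted p = 0.00655) and 3.94 ± 0.72 (adjusted p = 0.00159). When a single technical repeat, the first, stood for each replicate, the call was lost for both proteins (adjusted p = 0.148 and 0.147), and it held under every other alternative run, from 1.9e-05 to 0.0331 for WT Ngn3. Lmx1a (ENSMUSG00000026686, chromosome 1, 167689237 to 167848741, plus strand), its paralog, was too rare to test, with 2 reads in 1 GFP-only pool and none in the 36 Ngn3 pools of 2 days.

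Neither hydroxylase was called at 2 days. Tph1 (ENSMUSG00000040046, chromosome 7, 46644641 to 46672537, minus strand) was at 0.110, 0 and 0 CPM in GFP-only cells, 0.396, 0.576 and 0.0493 with WT Ngn3 and 0.183, 0.156 and 0.401 with 6S-A Ngn3. That is 3, 22 and 16 reads per group, and the pooled ratios were 8.50 (2.56 to 44.4) and 6.30 (1.80 to 33.7), intervals that cover counting error only. The fitted log2 fold changes were 2.98 (95% interval 0.29 to 5.67, unadjusted p = 0.0325 by edgeR's quasi-likelihood test) and 2.53 (-0.18 to 5.23), without a call after adjustment (adjusted p = 0.164 and 0.207). Tph2 (ENSMUSG00000006764, chromosome 10, 115078641 to 115185022, minus strand) had 31 reads in GFP-only cells, 10 with WT and 17 with 6S-A Ngn3 (adjusted p = 0.607 and 0.768). The fitted interval for Tph2 with WT Ngn3 reached from -4.19 to 1.35, so these reads leave its direction undecided.

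Gch1 (ENSMUSG00000037580, chromosome 14, 47153895 to 47189413, minus strand) had the most reads of the members in GFP-only cells, and its replicates with Ngn3 all lay below those without. GFP-only replicates had 89.5, 95.1 and 97.7 CPM, WT Ngn3 replicates 73.3, 56.2 and 88.7, and 6S-A Ngn3 replicates 59.5, 68.9 and 84.8. The groups did not overlap, but the log2 fold changes of -0.36 ± 0.17 and -0.41 ± 0.17 were not called (adjusted p = 0.209 and 0.117). With the replicate number as a block both were called, at -0.38 (adjusted p = 0.0336) and -0.42 (adjusted p = 0.0145), and over all alternatives the adjusted p ranged from 0.0336 to 0.93 and from 0.0145 to 0.345.

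The transporters were expressed without Ngn3. Slc18a1 (ENSMUSG00000036330, chromosome 8, 69037711 to 69089235, minus strand) was at 3.62, 4.04 and 5.92 CPM in GFP-only cells, 3.49, 3.56 and 7.05 with WT Ngn3 and 8.79, 5.20 and 7.05 with 6S-A Ngn3. Slc18a2 (ENSMUSG00000025094, chromosome 19, 59260896 to 59296012, plus strand) was at 12.6, 12.6 and 15.1 CPM, then 14.8, 18.5 and 11.2, then 15.4, 10.4 and 12.1 in the same order. For both genes the Ngn3 replicates overlapped the controls. The log2 fold changes were 0.06 and 0.63 for Slc18a1 (adjusted p = 0.954 and 0.252) and 0.15 and -0.09 for Slc18a2 (adjusted p = 0.789 and 0.857), and the 95% interval for Slc18a2 reached from -0.33 to 0.63 with WT Ngn3. Slc18a2 shares exon bases with Gm29261 on the opposite strand, and whether counting used strand is not stated, so its reads may include some of that gene. The other positions are also those of GENCODE M21 on GRCm38, and Slc18a1 and Gch1 overlap other genes outside their exons.

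**Figure D2:**
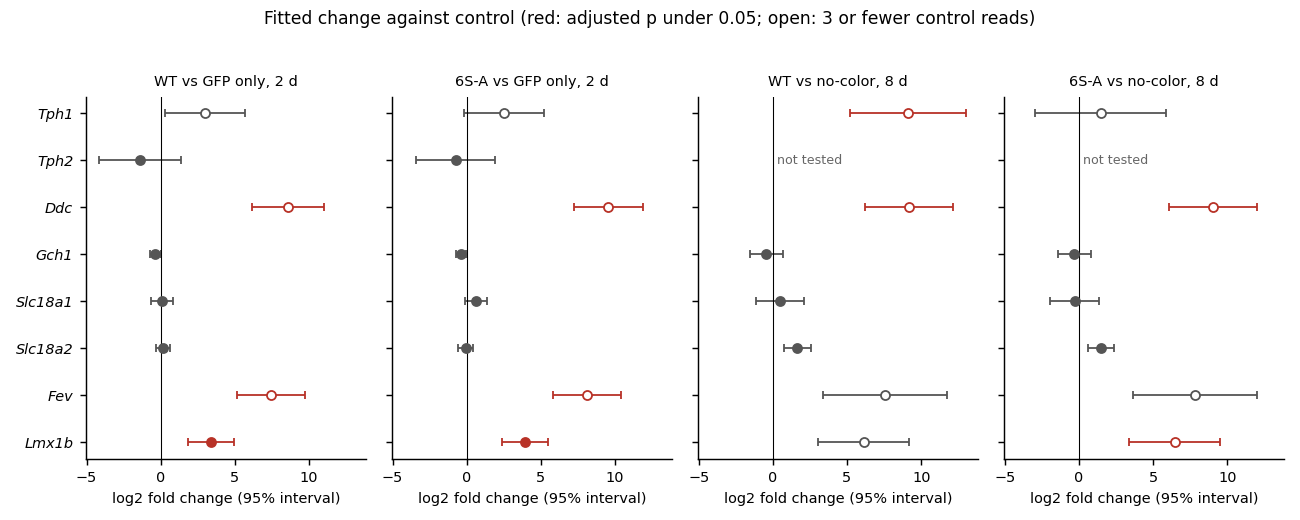
Fitted log2 fold change against control (x axis) with its 95% interval for each member tested (y axis), in 4 comparisons. Red marks an adjusted p under 0.05, and open circles mark genes with 3 or fewer control reads, whose fitted value depends on the prior count. Fev, Ddc and Lmx1b are red at 2 days with both proteins, and Ddc is red in all 4 panels.

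Compared per kilobase of exon, the order of levels was different from that of the read counts. With WT Ngn3 at 2 days Gch1 led at 11.6 ± 2.60 CPM per kilobase (SD, n = 3), followed by Fev at 3.34 ± 2.71 and Slc18a2 at 2.84 ± 0.693. Below these were Slc18a1 at 0.870 ± 0.377, Lmx1b at 0.595 ± 0.448 and Ddc at 0.466 ± 0.284, and the hydroxylases were under 0.06 CPM per kilobase. Fev and Slc18a2 did not differ beyond their spread, nor did Slc18a1, Lmx1b and Ddc. With 6S-A Ngn3 the order was the same from Gch1 to Slc18a1, with Fev at 5.34 ± 3.28, and Ddc at 0.921 ± 0.352 and Lmx1b at 0.870 ± 0.218 were within their spread of each other. At 8 days with WT Ngn3, Ddc at 3.26 ± 3.50 and Slc18a2 at 4.10 ± 0.419 came after Gch1, apart from Tph1, whose mean rested on 1 replicate.

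No member was called between 6S-A and WT Ngn3 at 2 days. Means were higher with 6S-A Ngn3 for Fev (8.64 against 5.41 CPM), Ddc (4.11 against 2.08) and Lmx1b (4.24 against 2.91), but the replicates overlapped in each. By replicate number, Fev was higher with 6S-A Ngn3 in 3 of 3 pairs, and with the block its log2 difference was 0.81 (adjusted p = 0.554). Ddc and Lmx1b were higher with 6S-A Ngn3 in replicates 1 and 2 but lower in replicate 3. There Ddc was at 2.72 against 2.96 CPM and Lmx1b at 4.86 against 5.42 CPM. The log2 difference was 0.96 for Ddc (95% interval -0.21 to 2.14), 0.66 for Fev (-0.67 to 2.00) and 0.54 for Lmx1b (-0.76 to 1.84), so a level 2-fold higher with 6S-A Ngn3 lay inside each interval. By edgeR 0 of 8 members were called and 0 had an unadjusted p under 0.05, DESeq2 called 0, and 0.0126% of all genes were called (3 genes, with 1380 at an unadjusted p under 0.05). The median of the members was 0.56 beside -0.00117 over all genes. Letting the first technical repeat alone stand for a replicate turned the Fev difference round, to -3.87 (adjusted p = 0.0115; 0.0115 to 1 over the alternatives). The cause was not tested.

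Levels of these genes varied between the single pools of a group. Fev had at least 1 read in 12 of 18 WT Ngn3 pools and 14 of 18 6S-A Ngn3 pools of 2 days, against 2 of 18 GFP-only pools with 1 read each. With WT Ngn3 the lowest, median and highest pool had 0, 1.25 and 31.5 CPM, and with 6S-A Ngn3 0, 4.99 and 45.7 CPM. The highest pool held 32.7% and 31.0% of the group's summed CPM, and the highest 3 pools held 60.6% and 54.9%. A pool is 50 cells read without molecular identifiers, and the part of sampling and amplification in this spread was not tested.

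Ddc was read in 0 of 18 GFP-only pools, in 11 of 18 WT Ngn3 pools (median 0.863, highest 8.14 CPM) and in 15 of 18 6S-A Ngn3 pools (median 3.33, highest 10.7 CPM). Lmx1b was read in the most pools of the 3, with reads in 9 of 18 GFP-only pools, 17 of 18 WT Ngn3 pools and 18 of 18 6S-A Ngn3 pools. Its highest pool held 21.3% and 10.9% of the summed CPM, and that of Ddc 19.1% and 14.6%. Over 3 reads were found for Lmx1b in 2, 13 and 18 of 18 pools, for Fev in 0, 9 and 14, and for Ddc in 0, 9 and 13, in the order GFP only, WT and 6S-A Ngn3. The pools of a replicate were technical repeats, so these counts are no test between the proteins.

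**Figure D3:**
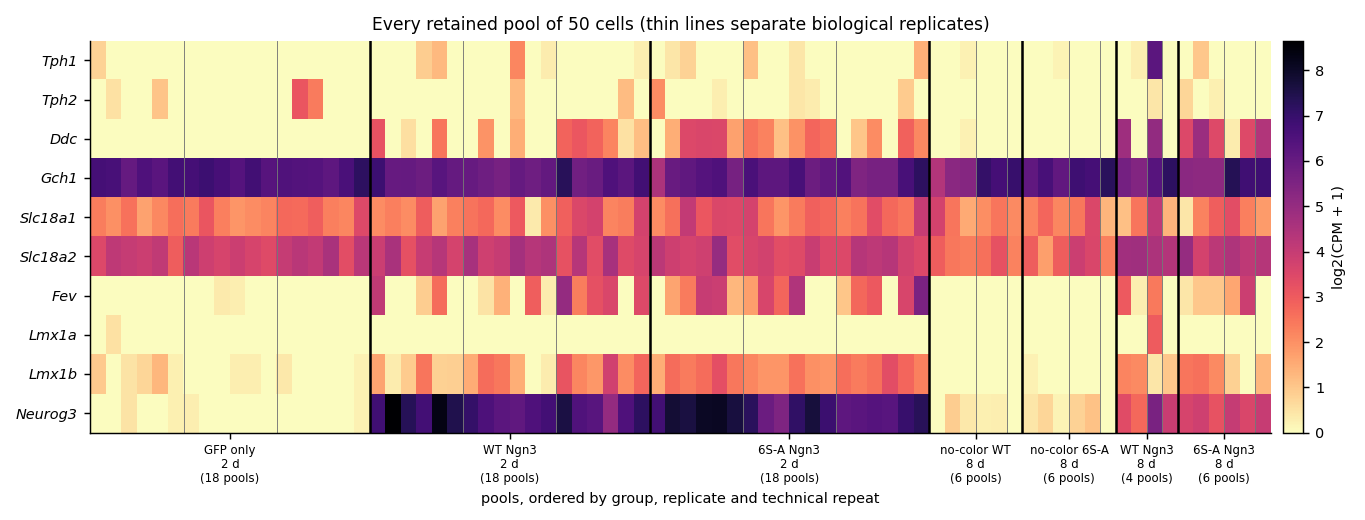
log2(CPM + 1) of the 9 genes and Neurog3 (rows) in each of the 76 retained pools (columns), ordered by group, replicate and technical repeat. Gch1 and Slc18a2 are present in every pool, Fev and Ddc are patchy among Ngn3 pools and near absent from both kinds of control, and Tph1 and Lmx1a stand out in 1 WT Ngn3 pool of 8 days.

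Fev and Ddc were each read in most Ngn3 pools of 2 days. Of the 36 pools, 21 held both, 5 Fev alone, 5 Ddc alone and 5 neither, and all 21 also held Lmx1b. Fev was read in 12 WT and 14 6S-A Ngn3 pools of 18 each, Ddc in 11 and 15, and Lmx1b in 17 and 18. Genes read in so many pools share many of them without any link, so these counts are no result on joint presence. Spearman's rho of CPM over the 36 pools was 0.59 for Fev and Ddc, 0.43 for Fev and Lmx1b, and 0.31 for Ddc and Lmx1b. For Fev and Ddc it was 0.62 within the 18 WT Ngn3 pools and 0.42 within the 18 6S-A Ngn3 pools. With Neurog3 the rho of Fev was 0.02, and that of Ddc was 0.28, with -0.11 within WT Ngn3 pools and 0.62 within 6S-A Ngn3 pools. For Lmx1b it was -0.03, with -0.32 and 0.34. With the total reads of a pool Fev and Ddc had 0.08 and 0.09, and Ddc within 6S-A Ngn3 pools 0.40. Neurog3 itself had 0.49 with total reads, 0.57 within WT and 0.43 within 6S-A Ngn3 pools. The part of read depth in the values with Neurog3 was not tested. The points are pools of 6 replicates, and 4 pairs of Ngn3 pools were closer to each other than other technical repeats, so these values are a description.

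**Figure D4:**
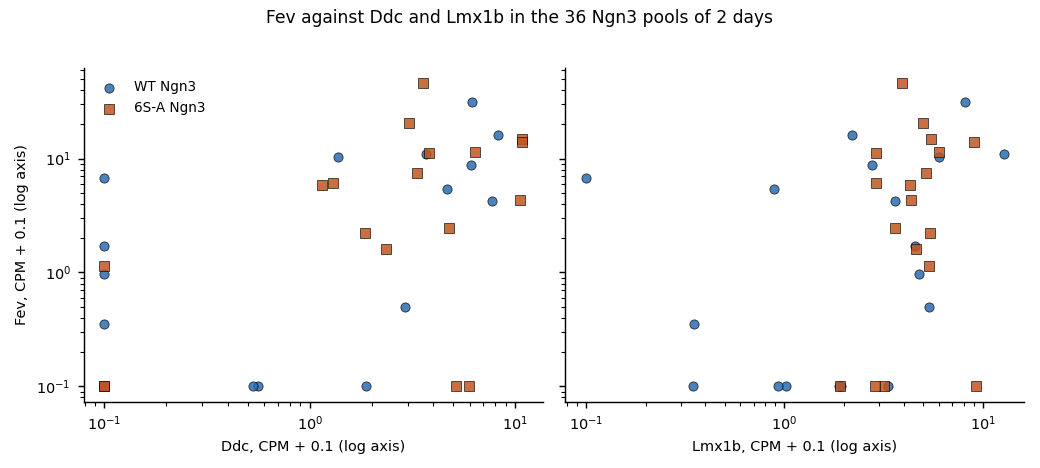
Fev (y axis) against Ddc (left) and Lmx1b (right) in the 36 Ngn3 pools of 2 days, each axis in CPM plus 0.1 on a log scale so that pools at 0 can be drawn. Circles are WT Ngn3 and squares 6S-A Ngn3. Of the pools without Fev, 5 also lack Ddc and 5 hold it, and every pool without Fev holds Lmx1b.

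At 8 days Ddc was higher than in no-color cells with both proteins, Tph1 was called with WT Ngn3 through 1 pool and Lmx1b with 6S-A Ngn3, and the other members were not called. Of 7 members tested, 2 were called with WT Ngn3 (background 0.914% of 19696 genes) and 2 with 6S-A Ngn3 (1.71%), all higher. With the replicate number as a block, 4 were called for each protein, beside 2.4% and 3.57% of all genes. The median log2 fold change of the members was 6.12 and 1.49, beside 0.01 and 0.03 over all genes. With WT Ngn3 the median fell on Lmx1b, and Tph1 lay above it at 9.09. Without WT Ngn3 replicate 2, a single pool, Tph1 was at 0.77, so the WT median rests in part on that pool. The 2 medians are therefore no comparison of the proteins. Fits at 8 days used the mean of both no-color groups as control, shared by both comparisons.

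Ddc was at 12.5, 31.1 and 0 CPM with WT Ngn3 and at 13.9, 5.50 and 21.2 CPM with 6S-A Ngn3, against 1 read in all 6 no-color replicates. WT replicate 3, a single pool at passage 5, had 0 reads and was the only Ngn3 replicate at the level of the controls. The 135 reads of WT replicate 1 came from 1 of its 2 pools, so that Ddc was read in 2 of the 4 WT Ngn3 pools, against 6 of 6 with 6S-A Ngn3. The pooled ratios were 756 (134 to 29975) and 811 (145 to 32128), with adjusted p = 0.00463 and 0.00331. Against the no-color cells of its own organoids the WT call was lost (adjusted p = 0.0968), as it was with only the first technical repeat (0.0924) and without no-color WT replicate 1 (0.0587). Without the passage 5 organoids it held (adjusted p = 0.00225).

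Lmx1b was at 3.15, 0.320 and 0.989 CPM with WT Ngn3 and 3.93, 0.351 and 1.54 CPM with 6S-A Ngn3, against 1 read in all no-color cells. Replicate 2 was the lowest in both groups, with 1 and 3 reads. The pooled ratios were 130 (22.1 to 5273) and 153 (26.6 to 6100). The adjusted p was 0.0666 with WT and 0.0338 with 6S-A Ngn3, and with the block 0.0291 and 0.0137, within ranges of 0.0106 to 0.352 and 0.00384 to 0.246 over the alternatives. The 6S-A call was lost in 7 of the 12 fits that left out 1 replicate, namely 6S-A Ngn3 replicate 1 or any of the no-color replicates (adjusted p = 0.0571 to 0.145), and without the passage 5 organoids (adjusted p = 0.13).

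Fev had no read in any no-color cell at 8 days. It was at 3.34, 4.16 and 0 CPM with WT Ngn3 and at 0.665, 8.19 and 0 CPM with 6S-A Ngn3, so that replicate 3 of both groups, each a single pool at passage 5, held none. Against the floor of 3 reads per control replicate, the group mean of Fev was at least 4.88-fold and at least 5.76-fold higher. With 6S-A Ngn3, replicate 2 held 70 of the 81 reads. Fev was not called (adjusted p = 0.107 and 0.0702), and was called with the block (7.96 and 7.48 on the log2 scale, adjusted p = 0.0202 and 0.0225). Over the alternatives the adjusted p ranged from 0.000211 to 0.389 and from 7.71e-05 to 0.328. Without the passage 5 organoids the adjusted p was 0.0544 with WT and 0.04 with 6S-A Ngn3, where leaving out 6S-A Ngn3 replicate 3 alone also gave a call (0.0345).

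Slc18a2, already present in control cells, was at 23.7, 21.1 and 19.4 CPM with WT Ngn3 and 19.5, 18.6 and 20.3 CPM with 6S-A Ngn3. The no-color cells had 5.77, 6.75 and 5.19 CPM in WT organoids and 6.18, 13.3 and 4.55 CPM in 6S-A organoids. No Ngn3 replicate overlapped a no-color replicate. The log2 fold changes of 1.65 ± 0.42 and 1.49 ± 0.42 were not called (adjusted p = 0.0829 and 0.0926), were called with the block at 1.71 (0.0251) and 1.56 (0.0345), and were called by DESeq2 (0.00148 and 0.00432), over ranges up to 0.366 and 0.423. Between the controls, no-color cells of 8 days against GFP-only cells of 2 days, its log2 difference was -0.95 (adjusted p = 0.14; 0.0288 to 0.492 over the alternatives).

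Gch1 and Slc18a1 were not called at 8 days. Gch1 ranged from 32.7 to 140.4 CPM over the 6 Ngn3 replicates and from 35.5 to 174.1 over the 6 no-color replicates, and Slc18a1 from 1.58 to 16.6 and from 1.72 to 7.64. The log2 fold changes were -0.43 and -0.31 for Gch1 (adjusted p = 0.841 and 0.892) and 0.48 and -0.29 for Slc18a1 (adjusted p = 0.889 and 0.939). Tph2 had 1 and 5 reads in the Ngn3 groups and none in no-color cells, too few to test.

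Tph1 at 8 days was the result of 1 pool. With WT Ngn3 it was at 0.0927, 72.0 and 0 CPM, with 6S-A Ngn3 at 0.242, 0 and 0 CPM, and no-color cells had 2 reads in all. Replicate 2 of WT Ngn3 held 225 of the group's 226 reads. The fit gave a log2 fold change of 9.09 ± 1.82 (adjusted p = 0.034), which became 0.77 (adjusted p = 0.968) without that replicate. The call was also lost with the block (8.43, adjusted p = 0.147), against the no-color cells of its own organoids (0.23) and without the passage 5 organoids (0.0706). It held in 6 of 20 alternatives, among them 2 of the 12 fits that left out 1 replicate. The adjusted p ranged from 7.34e-16 to 0.968 over the alternatives.

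That pool, the retained technical repeat of WT Ngn3 replicate 2, held 3034680 reads and 16357 detected genes. Among all 76 pools it was the highest for 4 of the 9 members: Tph1 at 74.1 CPM (next 3.56), Ddc at 32.0 (next 28.9), Slc18a1 at 17.1 (next 15.9) and Lmx1a at 6.92 (next 0.430). Lmx1b had 1 read in it and Fev 13 reads. Neurog3 was at 47.5 CPM in it, against 5.63 to 15.2 in the other 9 Ngn3 pools of 8 days. Of 139 members, list genes and markers it was highest for 6, the other two being Htr1d, a serotonin receptor, at 3.62 CPM (next 3.13) and the tuft-cell factor Pou2f3 at 10.9 (next 3.35). Of the 8 tuft-cell markers 4 had a read in it, Dclk1, Avil and Ptgs1 besides Pou2f3, and Trpm5, Il25, Alox5ap and Sh2d6 had none. The pool was singled out after its values were seen, so no test is given.

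The granule proteins Chga and Chgb were at 246.2 and 756.9 CPM in this pool, near the medians of 261.0 and 658.9 over the other 9 Ngn3 pools of 8 days. Of other granule genes, Scg2 at 0.659 CPM (median 28.9), Scg3 at 17.5 (69.4) and Scg5 at 9.56 (73.9) were below theirs. Ptprn2 was above its own, at 23.4 CPM (18.0). Of the 10 enterochromaffin markers 6 had a read in it, and it was highest for 3 of these, the members Tph1, Slc18a1 and Lmx1a. It was highest for 0 of the 19 enterochromaffin features listed. Tac1, Reg4, Trpa1 and Cartpt had no read in it, and Tac1 and Reg4 had none in the other 9 Ngn3 pools of 8 days either. Of 10 mast cell or basophil markers, the other common source of Tph1, only Kit had a read, and 0 of 5 leukocyte markers did.

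Between 6S-A and WT Ngn3 at 8 days, edgeR called 0 of 7 members, 1 had an unadjusted p under 0.05 (Tph1, p = 0.00386, from the pool described above) and DESeq2 called 0. Over all genes 0% were called, with 415 at an unadjusted p under 0.05. The log2 difference was -0.11 for Ddc (95% interval -2.53 to 2.31), 0.24 for Fev (-3.53 to 4.01), 0.33 for Lmx1b (-2.64 to 3.30) and -0.16 for Slc18a2 (-1.21 to 0.90). The intervals of the first 3 are wide enough to hold a 4-fold difference either way. The median of the members was -0.11 beside 0.02 over all genes.

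From 2 to 8 days no member was called in either Ngn3 group. The mean of Ddc went from 2.08 to 14.5 CPM with WT Ngn3 (log2 difference 2.79, adjusted p = 0.472) and from 4.11 to 13.5 with 6S-A Ngn3 (1.72, adjusted p = 0.54), while that of Fev went from 5.41 to 2.50 (-1.11, adjusted p = 0.872) and from 8.64 to 2.95 (-1.54, adjusted p = 0.695). Over the same interval Neurog3 fell by 3.45 on the log2 scale with 6S-A Ngn3 (adjusted p = 0.0112), and its log2 difference with WT Ngn3 was -2.60 (adjusted p = 0.0767). By edgeR 0 of 7 members were called in WT Ngn3 cells (0.168% of all 19589 genes; 2 members and 1707 genes at an unadjusted p under 0.05) and 0 of 7 in 6S-A Ngn3 cells (0.562%; 0 members and 2440 genes). In no-color cells of 8 days against GFP-only cells of 2 days 0 of 7 were called (1.35%; Slc18a2, Lmx1b and 2907 genes in all at an unadjusted p under 0.05), and DESeq2 called Slc18a2.

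The change of the difference between the proteins from 2 to 8 days was tested as an interaction. It was called for 0 of 7 members and 0% of all genes, with 1 member (Tph1) and 445 genes at an unadjusted p under 0.05, and DESeq2 called 0 members. The medians of the members in these 4 comparisons were 0.53, -0.80, -0.25 and -0.43, beside -0.04, -0.02, -0.07 and 0.04 over all genes. The passage 5 replicates occur only at 8 days.

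Around these genes, calls at 2 days went in both directions in the cofactor pathway and in serotonin handling, and were nearly all upward among regulators and secretory genes. Counts of list genes stand beside the 11.8% and 18.1% of all genes called, and 1 gene of a list of 6 or 7 is near that share and is no result about the list. Of the 6 BH4 genes, 1 rose and 0 fell with WT Ngn3, and 1 rose and 3 fell with 6S-A Ngn3 (medians -0.27 and -0.37). Qdpr, which regenerates BH4, rose from 41.2 CPM in GFP-only cells to 71.0 with WT and 88.6 with 6S-A Ngn3 (log2 fold change 0.80 ± 0.16 and 1.11 ± 0.16, adjusted p = 0.00428 and 0.000226). Of 12 tested genes of tryptophan uptake, serotonin transport and breakdown, 2 rose and 1 fell with WT Ngn3, and 3 rose and 2 fell with 6S-A Ngn3.

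Slc7a8, an amino acid transporter that carries tryptophan, rose from 0.0494 to 3.41 and 4.13 CPM (adjusted p = 0.000298 and 0.000126), and Slc29a4, a low-affinity serotonin transporter of the plasma membrane, from 46.3 to 75.2 and 97.3 CPM (0.00554 and 0.000155). Aldh2, which acts in serotonin breakdown, fell from 178.8 to 118.9 and 110.6 CPM (0.00579 and 0.00103). Slc6a4, the serotonin transporter that neurons and enterocytes use, had 3 reads, all in WT Ngn3 cells of 2 days, and no read in the other groups. The median log2 fold change of this list was 0.58 and 0.85, beside 0.01 and 0.02 over all genes.

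Ddc also serves dopamine synthesis, and 2 of 5 tested genes of other transmitters rose with each protein. Th, which makes the substrate of Ddc in dopamine synthesis, was at 0 in GFP-only cells, 2.18 ± 0.705 CPM with WT Ngn3 (at least 18.0-fold higher) and 6.77 ± 4.53 CPM with 6S-A Ngn3 (at least 55.9-fold). Gad1, which makes GABA, rose from 0.0898 to 11.4 and 15.1 CPM (adjusted p = 1.58e-05 and 5.35e-06). Among 7 tested serotonin receptors 1 rose with both proteins, Htr3a, from 0 to 0.456 and 0.255 CPM, on 28 and 16 reads. With the block, under which 18.0% and 24.8% of all genes were called, 3 and 4 of the 5 amine genes were called, and 1 BH4 gene also fell with WT Ngn3.

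Of the 12 tested regulators of serotonergic or enterochromaffin fate, 7 rose with WT Ngn3 (median 4.17), and 8 rose and 1 fell with 6S-A Ngn3 (median 2.71). They include Neurod1, at 68.1 ± 60.4 and 73.3 ± 23.0 CPM against 1 read in GFP-only cells, Insm1, from 0.195 to 116.5 and 147.8 CPM, Runx1t1, from 0.0507 to 31.6 and 43.2 CPM, and Pax4, from 0.0507 to 4.82 and 9.08 CPM. These factors also act in islet endocrine cells. Of the 17 tested enterochromaffin features, 8 rose with WT and 11 with 6S-A Ngn3 (medians 3.90 and 4.60). The leading ones were the granule genes Chga, from 0.404 to 120.7 and 217.6 CPM, Chgb, Ptprn2 and Scg3, which endocrine cells of many kinds share. With the block 7 and 10 features rose.

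**Figure D5:**
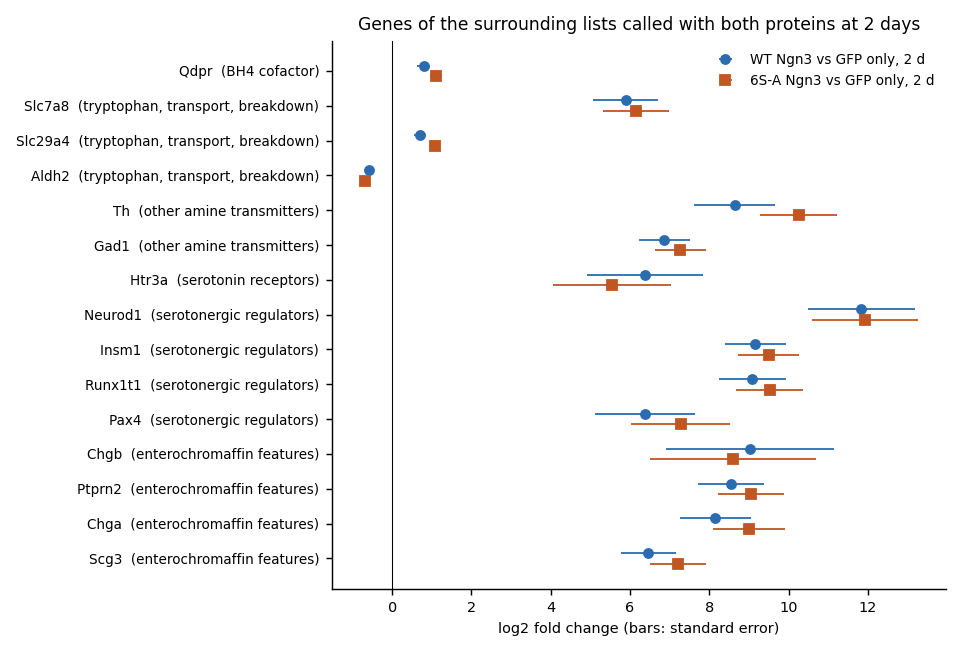
log2 fold change against GFP only at 2 days (x axis, bars are the standard error) of the genes of each surrounding list that were called with both proteins, at most 4 per list (y axis). Circles are WT Ngn3 and squares 6S-A Ngn3. Genes of regulators and granules lie at 6.38 and above with WT Ngn3, while Aldh2 lies below 0.

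At 8 days 0 of 6 BH4 genes, 0 of 11 genes of tryptophan and serotonin handling, 0 of 2 other amine genes and 0 of 4 receptors were called with either protein. Beside the 0.914% and 1.71% of all genes called, regulators were called in 3 of 9 cases with WT Ngn3 and 4 of 9 with 6S-A Ngn3, all higher (medians 5.90 and 6.45), and enterochromaffin features in 4 of 13 with each (medians 4.76 and 5.55). With the block, under which 2.4% and 3.57% of all genes were called, these counts were 5 and 5 for regulators, 7 and 8 for features, 2 and 2 for tryptophan and serotonin handling, and 1 and 1 for amine genes. Insm1, Neurod1, Ptprn2 and Scg3 were called with both proteins at both days.

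Markers of other cell types moved with the groups to different degrees. Of the 10 mast cell or basophil markers, 3 could be tested at 2 days and 1 rose, Kit, from 2.82 to 42.5 and 53.5 CPM. Hdc, which makes histamine, was at 0.0128, 0.494 and 0.536 CPM, with larger log2 fold changes than Kit (4.73 and 4.82, against 3.92 and 4.25) but no call (adjusted p = 0.103 and 0.0720). Gata2 was at 0.110, 0.468 and 0.111 CPM (adjusted p = 0.447 and 0.993), and with the block 2 of the 3 were called higher with each protein. Ms4a2 had 3, 1 and 6 reads, and Cpa3, Mcpt4, Fcer1a, Tpsb2, Tpsab1 and Cma1 were at or near 0. The summed level of the list was 1.72 to 5.12 CPM in GFP-only replicates, 31.4 to 66.1 with WT Ngn3 and 35.8 to 69.1 with 6S-A Ngn3. Of the 10 enterochromaffin markers, 3 of 9 tested rose with each protein (2 of 9 with the block), with summed levels of 4.94 to 6.10, 62.2 to 508.5 and 223.8 to 578.9 CPM. The 3 were the member Fev and the granule genes Chga and Chgb, which made up most of the sum (means of 120.7 and 173.2 CPM with WT Ngn3), and Tac1, Cartpt, Reg4 and Trpa1 were not called. Of the 7 serotonergic neuron markers, 2 of 5 tested rose, Fev and Lmx1b, and Slc6a4, En2 and Tph2 were at or near the limit of detection. Of the remaining lists at 2 days, tuft-cell markers were called lower in 1 and 2 of 5 cases, and islet beta cell, leukocyte, acinar, mesenchyme and endothelium lists had at most 1 call each (with the block, 2 for endothelium with 6S-A Ngn3). At 8 days the summed level of islet beta cell markers was at most 1.38 CPM in no-color replicates, 0.320 to 29.4 with WT and 0.154 to 52.6 with 6S-A Ngn3, and 0 of 2 tested were called (1 of 2 with the block). The highest sums were nearly all Iapp, which was at 29.02, 0.320 and 0 CPM with WT Ngn3 and at 29.9, 52.3 and 0.154 with 6S-A Ngn3, whereas Ins1, Ins2, Mafa and Ucn3 had no read in either group. That of mast cell or basophil markers was at most 6.20 CPM, then 16.3 to 33.6 and 3.07 to 66.8, with 0 of 1 called. Duct markers were called lower in 1 and 2 of 8 cases at 8 days (2 and 4 with the block), at 10767 to 12538 CPM for WT Ngn3 and 6921 to 21722 for 6S-A Ngn3 against 12830 to 32456 in no-color cells. Of the 6 enterochromaffin markers tested at 8 days, 1 was called with WT and 0 with 6S-A Ngn3. The 1 call was the member Tph1, which rests on 1 pool and was lost with the block, under which 3 markers, Fev among them, were called with each protein. The part of these markers in the results was not tested.

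By Pearson's r of log2 CPM over the 21 replicates, among 19589 genes, the 3 most like Ddc were Pcsk1n (0.959), Rimbp2 (0.952) and Tshz3 (0.929). Those most like Fev were Cemip (0.946), Slc35d3 (0.934) and Tdh (0.933), and those most like Lmx1b were Ccdc154 (0.968), Baiap3 (0.947) and Msln (0.946). No gene appeared in more than 1 of the 3 sets. The 21 replicates fall into Ngn3 and control groups, so any gene that differs between those groups shares that split.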

How the data were processed

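RNA was measured by Smart-seq2 on pools of 50 sorted cells. Per the labels and the study's methods, the authors aligned single-end reads to mm10 with GSNAP and counted them per Ensembl gene with HTSeq 0.5.3p3. The deposited values are unnormalized whole-number counts of reads per gene, without molecular identifiers, and the strand setting is not given in the sources used here. Rows that name no gene stayed out of totals and tests. They held 22.52% of reads as not aligned, 14.37% as no feature and 8.056% as ambiguous, and 92 rows were spike-ins. The submitters' notes and the study name different sequencers.

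Libraries were kept with under 30% spike-ins, over 1000000 gene reads and over 10000 detected genes, which dropped 1 of 77 (WT Ngn3, 8 days, replicate 2, technical repeat 1). The study's methods left out more libraries than this under the same limits, and which ones is not given in the sources used here. Technical repeats were summed per biological replicate, 3 per group. Genes read in at least 5 retained libraries of the day were tested with edgeR 4.0.16 (R 4.3.3, limma 3.58.1; TMM, robust quasi-likelihood fit, Benjamini-Hochberg adjustment over all tested genes, threshold 0.05). One fit was made per day and one over all 21 replicates for contrasts between days. The 8-day control was the mean of both no-color groups. Log2 CPM for the likeness of genes used a prior count of 2. Where control replicates had no read, a floor of 3 reads per replicate gave a lower bound of the fold. It is the group mean over the mean floor, so single replicates can lie below it. With 1 to 3 control reads the pooled ratio has an exact 95% interval for counting error only. Tables were made with Python 3.11.15, pandas 2.3.3, scipy 1.17.1 and numpy 2.4.6. Motif windows came from RefSeq promoters, GRCm38.p6.

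Named genes were the members, the 3 most alike genes of each called member of 2 days, and at most 4 genes per list called with both proteins at 2 days. Outside this rule, further list genes and markers were named to describe the pool with Tph1, a count or sum of a list, or a gene near the limit of detection. The members and lists were chosen with earlier results of these data known. Some genes that belong to the lists are not reported here, and the counts leave them out. Same-numbered replicates deviated together, with correlations of 0.145 to 0.559 over 9 pairs at 2 days (10342 genes with a mean log2 CPM over 3) and 0.117 to 0.674 over 18 pairs at 8 days (9702 genes). Over all tested genes the lowest was 0.0436 and 0.0690. The numbers were treated as pairing, and the block was an alternative. Other alternatives were RLE factors, DESeq2 1.42.0, other low-count filters, all libraries, first technical repeats only, each protein's own no-color cells and leaving out each replicate. Leaving out the passage 5 organoids or the close technical repeats was chosen after seeing the data. On simulated counts the 2-day fit recovered 54% of genes changed by 2 on the log2 scale and 65% of those changed by 4 (23840 genes), and the 8-day fit 31% and 58% (19689 genes), none with the wrong sign, while 10 and 12 unchanged genes were called. The changed genes were drawn at random from all tested genes, as many lowered as raised, and the simulated replicates shared no deviation by number. These shares therefore do not give the power for the members.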

Additional observations from a re-analysis of the deposited data

Results flagged for a closer look

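In groups of 4 to 6 pools, 22 combinations of member and group were checked for a pool far from the others. The measure was the gap to the nearest pool divided by the range. Its limits flag about 1 in 20 for normally distributed values, which counts with many pools at 0 are not. Where all other pools are at 0 the measure is 1 whatever the read count. The share flagged by chance is therefore not known here, and pools of one replicate are not independent. Tph1 stood apart at 74.1 CPM in WT Ngn3 replicate 2 of 8 days (next 0.209), as did Lmx1a at 6.92 CPM in the same pool (next 0). Tph1 also stood apart at 1.00 CPM, 4 reads, in a pool of 6S-A Ngn3 replicate 1 of 8 days (next 0), and Tph2 at 0.661 CPM, 4 reads, in another pool of that replicate (next 0.195). Fev was at 13.7 CPM in a pool of 6S-A Ngn3 replicate 2 of 8 days (next 2.03). Slc18a1 was at 11.97 CPM in a pool of no-color WT replicate 1 (next 4.65). In the library left out for its low read total, labelled WT Ngn3 of 8 days, Slc18a2 was at 49.5 CPM, above the highest no-color pool at 13.6.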

How the results depend on the processing

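At 2 days the calls of Ddc and Fev held under all 17 alternatives for both proteins, and that of Lmx1b under 16. When the first technical repeat alone stood for each replicate, 1 member was called between 6S-A and WT Ngn3 (Fev, reversed to -3.87 from 0.66), and 0 members against no-color cells with either protein at 8 days. The 2 calls for WT Ngn3 at 8 days became 4 with the replicate block, 5 without a low-count filter, 1 with filterByExpr, 0 against its own no-color cells, 1 without the passage 5 organoids and 0 to 2 when each replicate was left out. The 2 calls for 6S-A Ngn3 became 4 with the block, 1 against its own no-color cells and 1 to 3 when each replicate was left out. Without a low-count filter 1 member was called between the proteins at 8 days, 3 for WT Ngn3 between days, 1 between the controls and 1 for the change of the difference. Between the controls DESeq2 called 1, and leaving out each replicate gave 0 to 1. The cause was not tested. Beside the changes given in the report, the block changed no other member call. Over all genes the block gave 4291 and 5912 calls against GFP only (2810 and 4305 without it), 147 between the proteins at 2 days (3 without it), 472 and 704 against no-color cells (180 and 337), and 623, 879 and 1125 between days (33, 110 and 265), and without a low-count filter there were 724 and 1044 calls at 8 days (180 and 337). Low read totals limit Tph1, Tph2 and Lmx1a, and at 8 days 1 pool can be a whole replicate.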
